A study of Caenorhabditis elegans with 16 samples.

Results

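The transcriptional response of 8-day-old adult Caenorhabditis elegans to 6 h without food was measured by comparing 4 fasted with 4 fed libraries, 8 of the 16 libraries of the study. The libraries were chosen by their labels alone. All animals were wild-type N2 Bristol, and RNA was taken from whole nematodes maintained on NGM plates. The groups were day 8 adults fed ad lib, day 8 adults fasted for 6 h, and, used only to compare responses, young adults fed ad lib or fasted for 6 h, with 4 libraries each. The study set out to find genes that fasting induced or repressed in young but not in aged animals, and the question taken up here is which response was left at day 8. The labels do not say whether the libraries of a group came from separate cultures, so p-values measure the spread between these libraries, which may be technical.

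Worms without food draw on fat stored in the intestine. Lysosomal lipases release fatty acids, which mitochondria and peroxisomes oxidise, and regulators such as the nuclear receptor NHR-49 and the transcription factor HLH-30 (the worm TFEB) are known to raise the genes for this shift in young animals. The intestine is also the main site of digestive proteases, detoxification enzymes and amino acid breakdown, while the hypodermis makes most cuticle collagens. In RNA from whole animals, fewer cells of a type and less RNA per cell cannot be told apart.

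Depth ranged from 80.7 to 117.7 M total counts over the fed day 8 libraries and from 65.2 to 75.4 M over the fasted ones, where M stands for 1e6. Libraries 1 and 2 stood apart from libraries 3 and 4 in both groups, on a first principal component that carried 56.5% of the variance of the 500 most variable genes. Fold changes and calls at day 8 therefore come from a fit with a term for these library sets, whose origin the labels do not give, unless another model is named. A second difference ran with feeding: the pseudogene WBGene00004677 on chromosome I took 2.27, 2.89, 0.582 and 1.38% of counts in fed libraries 1 to 4, and 6.57, 4.03, 8.21 and 2.32% in the fasted ones. That is 1.78% ± 1.01 against 5.28% ± 2.62 (SD, n = 4 each), and the highest fed library lay above the lowest fasted one (two-sided exact permutation test, p = 0.0571, smallest possible 0.0286). Within each set both fasted libraries were above both fed ones, and an exact permutation within sets gave p = 0.0556, the smallest it can give. Marker genes fixed for muscle, pharynx, neurons, oocytes, germline, sperm, early embryos and dividing cells had 0 called members, and 2 of 15 intestinal and 1 of 15 hypodermal markers were called lower (4 intestinal and 1 pharyngeal with the replicate block). The defining markers of no tissue vanished on fasting, but summed intestinal markers were lower in each set. They were 2030 and 1840 CPM fed and 1730 and 1560 CPM fasted in libraries 1 and 2. In libraries 3 and 4 they were 1830 and 1700 CPM fed and 1540 and 1600 CPM fasted. Of the 15 intestinal markers, 1 had a fold change above 0 (median -0.17). At an unadjusted p under 0.05, 7 were lower, where 8.75% of all tested genes lay. The part of this in the falls of single intestinal genes was not tested. Summed body wall muscle markers lay between 1100 and 2050 CPM fed and between 1060 and 1810 CPM fasted. CPM is counts per 1e6 counts of a library after scaling.

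Few genes passed the test for fasting at day 8. Of 16717 genes tested, 53 were higher (0.317%) and 86 lower (0.514%) in fasted animals, 139 in all (0.831%) (edgeR quasi-likelihood test, Benjamini-Hochberg adjusted p under 0.05). The genes that fell included some of those for UDP-glucuronosyltransferases, propionate breakdown, amino acid breakdown, cathepsin-like proteases and cuticle collagens. The genes that rose included histones, a lysosomal lipase, a peroxisomal enoyl-CoA hydratase, lysozymes and neuropeptides. Most falls were below 2-fold (65 of 86), as were 25 of the 53 rises. The median log2 fold change was 1.11 among rises (0.26 to 2.54) and -0.52 among falls (-5.17 to -0.19), against -0.01 over all genes tested. Of the 16717 genes tested, 7968 had a fold change above 0. Both fasted libraries lay beyond both fed libraries within each set for 53 of 53 rises and 80 of 86 falls, an arrangement that 4.88% and 6.58% of all tested genes showed. All 4 fasted libraries lay beyond all 4 fed libraries for 32 rises and 49 falls, against 1.23% of tested genes in each direction. The same libraries chose the called genes, so these arrangements describe the calls and are no separate support. The counts depended strongly on the model. A block for replicate number in place of the set term called 80 higher and 153 lower, and adding the share of WBGene00004677 as a covariate left 2 higher and 9 lower. With that covariate the median log2 fold change went from 0.80 to 0.78 over the 40 called rises that were not histones and from -0.52 to -0.56 over the 86 falls, but from 2.05 to 0.93 over the 13 called histones. More genes fell than rose with all libraries, but libraries 3 and 4 alone gave 75 higher and 63 lower, and libraries 1 and 2 alone 9 and 33. edgeR's legacy test, which made fewer false calls than the default on simulated counts, called 37 and 61. Without fed library 3 the counts were 7 and 28, and without fed library 2 they were 264 and 619.

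The 11 genes that stayed called with that covariate were ugt-63, C25H3.10, cah-4, dod-19, amt-4, clec-150, col-95, ugt-58 and hphd-1, which fell, and T22F3.11 and cth-1, which rose. They were picked out after their values were seen. Leaving out each of the 8 libraries in turn kept 29 of the 139 calls throughout, of which 4 were rises (T22F3.11, Y8A9A.2, cth-1 and C32D5.12) and 25 were falls.

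**Figure D1:**
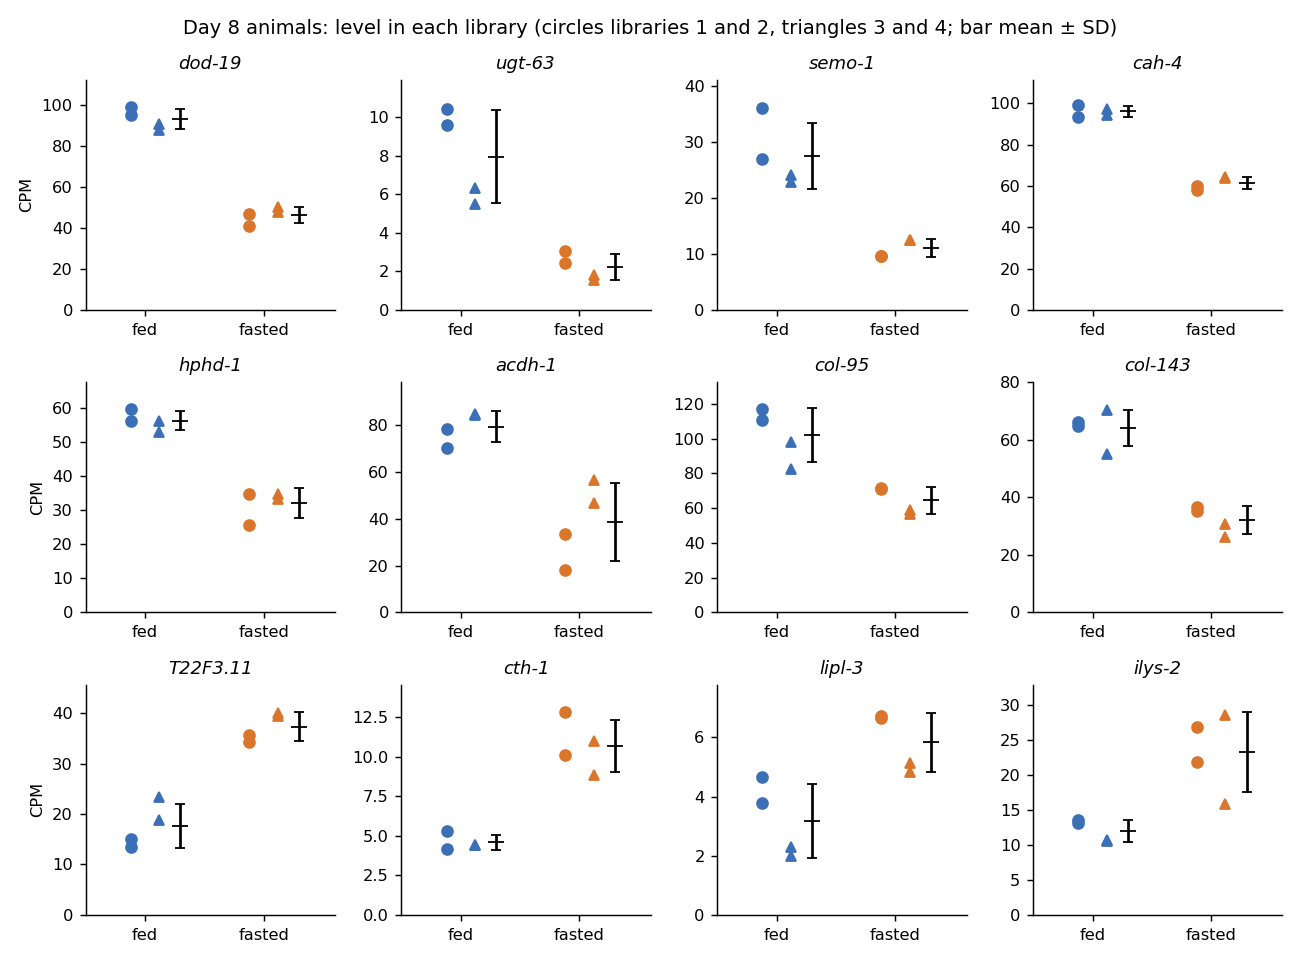
Level (CPM, linear axis from 0) of 12 genes in each day 8 library, with circles for libraries 1 and 2, triangles for libraries 3 and 4, and bars for the mean ± SD (n = 4). For dod-19 the fasted libraries lie between 41 and 50.4 CPM and the fed libraries between 88.0 and 99.4 CPM, and for T22F3.11 the fasted libraries lie between 34.2 and 40.0 CPM and the fed ones between 13.4 and 23.3 CPM.

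Detoxification genes fell in a subset. UDP-glucuronosyltransferases attach sugars to foreign compounds and metabolites, and 8 of the 64 tested fell while 0 rose, with a median of -0.12 over the family. ugt-63 (chromosome V, 5108180 to 5110772) stood at 10.4, 9.57, 6.32 and 5.51 CPM in fed libraries 1 to 4 and at 2.44, 3.07, 1.81 and 1.54 CPM in the fasted libraries. Every fasted library was below every fed one, and the log2 ratio of fasted to fed was -1.84 ± 0.11 (± SE here and below, adjusted p = 9.11e-05). ugt-58 (chromosome II, 9584384 to 9586784) had 60.1, 62.2, 61.2 and 60.6 CPM fed and 46.5, 45.9, 47.7 and 43.8 CPM fasted, a small but tight fall of 0.41 on the log2 scale. ugt-8, ugt-7, ugt-41, ugt-22, ugt-62 and ugt-64 also fell. Among 68 cytochrome P450 genes, which oxidise foreign compounds, only cyp-35C1 was called, which went from 20.9 ± 5.61 to 9.90 ± 0.547 CPM (log2 -1.04, adjusted p = 0.00372). The 42 glutathione S-transferases and 30 short-chain dehydrogenases tested had 0 calls. With the replicate block, 1 further P450 gene rose and 1 glutathione S-transferase fell. pgp-1, a P-glycoprotein that exports drugs, fell from 33.0 ± 6.22 to 20.9 ± 6.68 CPM (log2 -0.69, adjusted p = 0.011), with the groups overlapping across sets.

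Genes of immunity-related families moved in both directions. dod-19, a CUB-like gene first described downstream of DAF-16, and its neighbour irg-8, an infection response gene 1110 bases away on chromosome V, both fell. dod-19 (411782 to 414759) measured 95.3, 99.4, 90.9 and 88.0 CPM fed and 46.8, 41, 48 and 50.4 CPM fasted. The groups did not overlap, and the log2 fold change was -1.0 ± 0.07 (adjusted p = 9.11e-05). irg-8 went down less, by a log2 value of -0.64 ± 0.11 (adjusted p = 0.0249), with fed libraries from 17.4 to 45.6 CPM that overlapped the fasted ones, 9.66 to 27.5 CPM. The invertebrate-type lysozymes ilys-2 and ilys-3, enzymes that cut bacterial cell walls and lie 2234 bases apart on chromosome IV, rose, and were the only 2 of 15 lysozymes called. ilys-2 went from 13.5, 13.1, 10.6 and 10.7 CPM fed to 26.9, 21.8, 28.5 and 15.8 CPM fasted (log2 0.96 ± 0.15, adjusted p = 0.0227), with no overlap. ilys-3 rose by 0.56 ± 0.10 (adjusted p = 0.0366). Of 141 C-type lectins tested (1 called lower, 2 with the replicate block), clec-150 fell from 80.9 ± 7.75 to 46.2 ± 9.80 CPM (log2 -0.83, adjusted p = 0.000454) and clec-70 rose from 0.260 ± 0.0589 to 1.16 ± 0.432 CPM (log2 2.05, adjusted p = 0.0141). thn-2, a thaumatin-like gene, rose by 0.50 ± 0.08, although its libraries 1 and 2 (113.0 to 167.0 CPM) were far above libraries 3 and 4 (26.5 to 46.5 CPM) in both groups.

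A few enzymes that break down amino acids and propionate fell. In the list of 16 genes for the propionate shunt and vitamin B12, 3 fell and 0 rose (median -0.12). acdh-1, the acyl-CoA dehydrogenase that opens the shunt, measured 70.1, 78.0, 84.4 and 84.0 CPM fed and 33.5, 18.1, 46.8 and 56.4 CPM fasted. All fasted libraries were lower, with the 2 lowest in libraries 1 and 2, and the log2 fold change was -1.09 ± 0.19 (adjusted p = 0.0322). hphd-1, which acts on 3-hydroxypropionate in the same shunt, had 59.7, 56.3, 53.0 and 56.2 CPM fed and 34.6, 25.7, 34.7 and 33.4 CPM fasted, without overlap (log2 -0.81 ± 0.09, adjusted p = 0.0025). alh-8, a methylmalonate-semialdehyde dehydrogenase, fell from 589.0 ± 41.2 to 456.0 ± 11.7 CPM (log2 -0.37, adjusted p = 0.0112). Of 36 genes for amino acid breakdown, 4 fell and 0 rose (median -0.09): tdo-2, which opens tryptophan breakdown, by 0.36, hgo-1, the homogentisate dioxygenase of tyrosine breakdown, by 0.35, bcat-1, the branched-chain aminotransferase, by 0.37, and gldc-1 of the glycine cleavage system by 0.38 on the log2 scale.

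Methionine and sulfur genes split. cth-1, a cystathionine gamma-lyase that makes cysteine, rose on chromosome V (16100680 to 16102750) from 5.30, 4.19, 4.43 and 4.45 CPM fed to 12.8, 10.1, 8.86 and 11.0 CPM fasted. The groups lay well apart, and the log2 ratio was 1.22 ± 0.11 (adjusted p = 0.001). Its neighbour argk-1, an arginine kinase gene 1143 bases away, rose from 1.07 ± 0.542 to 3.37 ± 0.321 CPM (log2 1.63, adjusted p = 0.0101). semo-1, whose product oxidises methanethiol and is made in the hypodermis, went the other way on chromosome IV (14051200 to 14056717), from 26.9, 36, 24.1 and 22.9 CPM to 9.55, 9.66, 12.5 and 12.4 CPM (log2 -1.29 ± 0.15, adjusted p = 0.00398). Every fasted library was below every fed one. folt-2, a folate transporter family gene, fell from 9.88 ± 4.02 to 3.38 ± 1.32 CPM (log2 -1.54, adjusted p = 0.0148). The other 29 of the 32 genes tested in this list were not called, and the replicate block called 4 lower.

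The following genes were picked out after their values were seen. amt-4, of the ammonium transporter family, measured 8.48, 8.28, 8.31 and 7.26 CPM fed and 3.45, 2.48, 2.48 and 2.40 CPM fasted, with the groups far apart (log2 -1.59 ± 0.11, adjusted p = 0.000166). rhr-1, a Rhesus-type ammonia channel gene, fell from 49.7 ± 2.69 to 36.9 ± 4.30 CPM (log2 -0.43, adjusted p = 0.00372). Of 7 purine synthesis genes, pfas-1, paic-1 and atic-1 fell by 0.50, 0.67 and 0.64 on the log2 scale, and the other 4 were not called. glna-2, a glutaminase, rose by 0.50 ± 0.07 (adjusted p = 0.0141).

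Few protease genes were called. Of 19 intestinal proteases tested, the cathepsin B-like cpr-6, cpr-2 and cpr-5 fell and 0 rose (median -0.23, with 11 lower at an unadjusted p under 0.05). cpr-6 had 366.0, 354.0, 242.0 and 219.0 CPM fed and 256.0, 276.0, 189.0 and 185.0 CPM fasted. It was lower within each set but overlapped across sets (log2 -0.37 ± 0.05, adjusted p = 0.00844). cpl-1, a cathepsin L, fell from 626.0 ± 19.8 to 542.0 ± 24 CPM (log2 -0.21, adjusted p = 0.0292). Genes for the vacuolar proton pump (20 tested), autophagy (30) and the proteasome (33) had 0 calls. The replicate block called 2 proton pump genes lower and DESeq2 called 5 lower. At an unadjusted p under 0.05, 9 proton pump genes were lower and 0 higher, where 8.75% and 5.75% of all tested genes lay. DESeq2 also called 1 autophagy gene higher and 1 proteasome gene lower.

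Few genes of fat mobilisation were called, and how many depended on the model. lipl-3, a lysosomal lipase known to rise on fasting, had 3.77, 4.65, 2.29 and 2.00 CPM fed and 6.65, 6.73, 4.83 and 5.12 CPM fasted. All fasted libraries were higher (log2 0.92 ± 0.13, adjusted p = 0.0141). lips-6, of the lipase family, fell from 1.05 ± 0.156 to 0.226 ± 0.119 CPM (log2 -2.23, adjusted p = 0.0105). Of 30 peroxisomal enzymes, only ech-9, an enoyl-CoA hydratase family gene, was called. It went from 2.62, 2.00, 1.57 and 0.775 CPM to 6.60, 10.7, 2.98 and 3.38 CPM (log2 1.71 ± 0.23, adjusted p = 0.011), with the lowest fasted library just above the highest fed one. DESeq2 called 10 of these enzymes higher, libraries 3 and 4 alone 9, the fit of all 16 libraries 13, the fit without fed library 2 6, and libraries 1 and 2 alone 0. The list's median was 0.18, and 14 members were higher and 1 lower at an unadjusted p under 0.05, where 5.75% and 8.75% of all tested genes lay. All 11 peroxins, which import proteins into peroxisomes, had a fold change above 0 (median 0.16) with 0 called, and the median was 0.01 in libraries 1 and 2 and 0.25 in libraries 3 and 4. Mitochondrial fatty acid oxidation (27 tested), fatty acid synthesis (23), glycolysis (19) and nutrient sensing (37) had 0 calls, where the replicate block called 1 mitochondrial oxidation gene higher and 2 glycolysis genes lower. DESeq2 called 2 higher and 2 lower, 0 and 3, 1 and 2, and 0 and 2 in these lists, in the same order.

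acs-2, an acyl-CoA synthetase used as a marker of the fasting response, measured 184.0, 190.0, 187.0 and 172.0 CPM fed and 162.0, 191.0, 151.0 and 148.0 CPM fasted at day 8. The groups overlapped and the difference was not called (log2 -0.17 ± 0.06, adjusted p = 0.218), while the response in young adults was 6.26 ± 0.08. Its young mean went from 10.9 CPM fed to 833.0 CPM fasted, so the day 8 levels lay between these. icl-1, the glyoxylate cycle enzyme, had 680.0 ± 84.3 CPM fed and 649.0 ± 78.8 CPM fasted (adjusted p = 0.502). In young adults its mean level went from 128.0 to 4460 CPM, so the day 8 level lay between the young fed and young fasted levels in both feeding states. fmo-2, a flavin-containing monooxygenase, measured 66.8, 72.3, 170.0 and 170.0 CPM fed and 116.0, 110, 161.0 and 154.0 CPM fasted (adjusted p = 0.36). It was higher on fasting in libraries 1 and 2 and slightly lower in libraries 3 and 4. fat-7, a stearoyl-CoA desaturase, averaged 3.99 ± 1.46 CPM with food and 4.64 ± 0.561 CPM without (adjusted p = 0.463), whereas young adults fell from 250.0 to 5.17 CPM. nhr-49 itself measured 164.0 ± 5.88 and 164.0 ± 6.41 CPM, and hlh-30 at 121.0 ± 13 and 112.0 ± 11.0 CPM (adjusted p = 0.982 and 0.233). Of 15 genes of the glyoxylate cycle and gluconeogenesis, 0 had a fold change above 0, and 1 was called: pck-2, a phosphoenolpyruvate carboxykinase, fell by 0.19 on the log2 scale (adjusted p = 0.0465, but 0.0506 with the replicate block). DESeq2 called 5 of these genes lower. tps-2, a trehalose-6-phosphate synthase, fell by 0.26 (adjusted p = 0.0325).

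**Figure D2:**
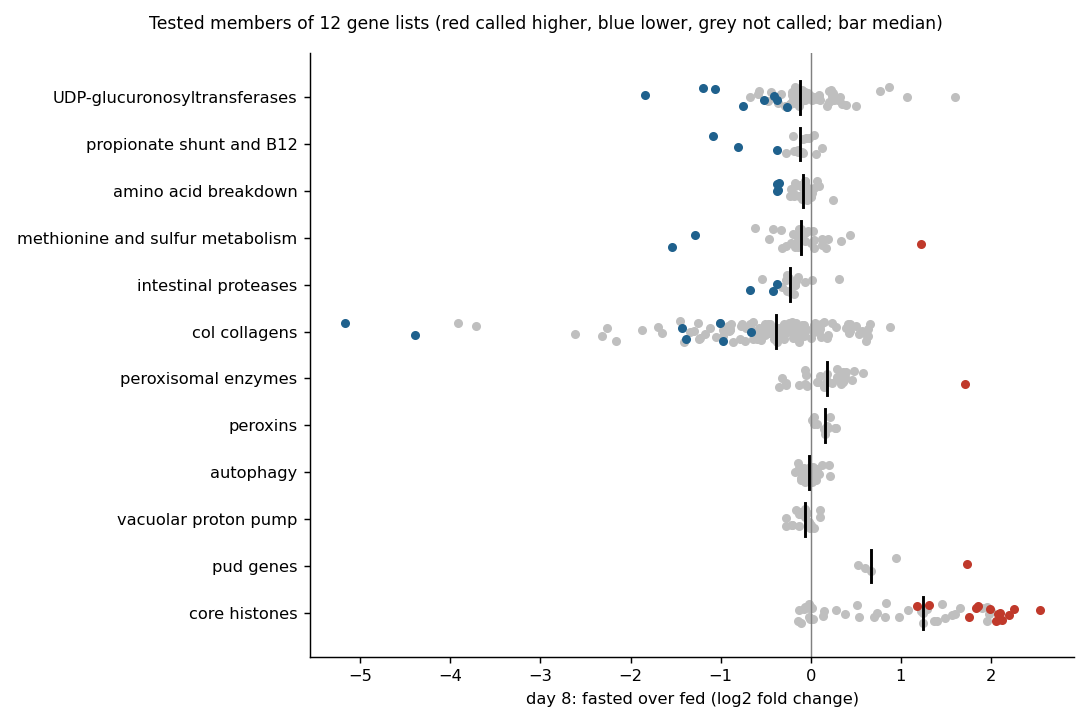
Log2 fold change (fasted over fed at day 8) of every tested member of 12 gene lists, with called rises in red, called falls in blue, other members in grey and a bar at the list's median. The median is 1.24 for core histones, 0.67 for the pud genes, 0.18 for peroxisomal enzymes, -0.12 for UDP-glucuronosyltransferases and -0.38 for col collagens. The list named core histones holds all his genes, with the linker histone gene his-24 among them.

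Secreted and neuropeptide genes supplied a few rises. nlp-25 (log2 1.75, adjusted p = 0.0134) and nlp-28 (log2 0.93, adjusted p = 0.0207), which encode neuropeptide-like proteins, and ins-8, an insulin-like peptide gene (log2 0.85, adjusted p = 0.0302), were the 3 called of 131 neuropeptide genes. nlp-25 rested on low levels, with 0.501, 1.62, 0.638 and 1.08 CPM fed and 3.70, 3.76, 2.80 and 2.95 CPM fasted. pud-3, one of the genes for proteins abundant in daf-2 mutants, rose from 0.811 ± 0.239 to 2.58 ± 0.878 CPM (log2 1.73, adjusted p = 0.0219), and the 5 pud genes tested were all higher at an unadjusted p under 0.05 (median 0.67), 2 of them called with the replicate block. far-7, of the fatty acid and retinol binding family, had 6.57, 8.04, 7.54 and 7.07 CPM fed and 9.12, 11.6, 11.4 and 10.8 CPM fasted, without overlap (log2 0.55 ± 0.10, adjusted p = 0.0314). adh-1, an alcohol dehydrogenase, rose from 401.0 ± 38 to 480.0 ± 6.52 CPM (log2 0.26, adjusted p = 0.0407, but 0.0522 with the replicate block). T22F3.11 on chromosome V (3612158 to 3614553) rose from 13.4, 15.0, 23.3 and 18.8 CPM to 34.2, 35.7, 40.0 and 39.4 CPM (log2 1.09 ± 0.09, adjusted p = 0.000545), with all fasted libraries above all fed ones.

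A minority of cuticle collagens were called, unevenly between the library sets. Of 134 col genes tested, 7 were called lower and 0 higher (25 lower with the replicate block, 5 in libraries 1 and 2 alone and 25 in libraries 3 and 4 alone), and the median was -0.38, with -0.02 in libraries 1 and 2 and -0.54 in libraries 3 and 4. col-95 (chromosome III, 11703994 to 11705091) had 117.0, 111.0, 98.0 and 82.4 CPM fed and 70.8, 71.6, 56.9 and 58.9 CPM fasted (log2 -0.66 ± 0.05, adjusted p = 0.000454). Its groups did not overlap in either set. col-143 fell from 64.2 ± 6.44 to 32.1 ± 4.82 CPM and col-101 from 61.4 ± 7.43 to 31.2 ± 4.82 CPM, on different chromosomes (log2 -1.01 and -0.98, adjusted p = 0.000724 and 0.0025). Both genes had close levels in every library, such as 70.3 and 70.3 CPM in fed library 4 and 30.6 and 30.6 CPM in fasted library 4. Whether they shared counts was not tested, so they may not be separate falls. The fall of col-63 was carried by libraries 3 and 4: it measured 0.195, 0.590, 12.2 and 20.3 CPM fed and 0.311, 0, 0.350 and 0.284 CPM fasted. Its log2 fold change of -5.17 ± 0.62 (adjusted p = 0.00169) thus rests on fed levels that were high in only one set. col-49, col-104 and col-109 also fell further in libraries 3 and 4, with log2 values of 0.14, -0.63 and -0.83 in libraries 1 and 2 against -6.18, -1.69 and -1.57. DESeq2 did not call these 4 genes (adjusted p = 0.102 for col-63, 0.208, 0.0718 and 0.107 for the others). Of 21 body-shape collagens tested, 0 were called, and 4 were lower with the replicate block. Summed hypodermal markers differed between sets as well, from 389.0 to 524.0 CPM in libraries 1 and 2 and from 668.0 to 801.0 CPM in libraries 3 and 4. Their part in the collagen values was not tested.

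**Figure D3:**
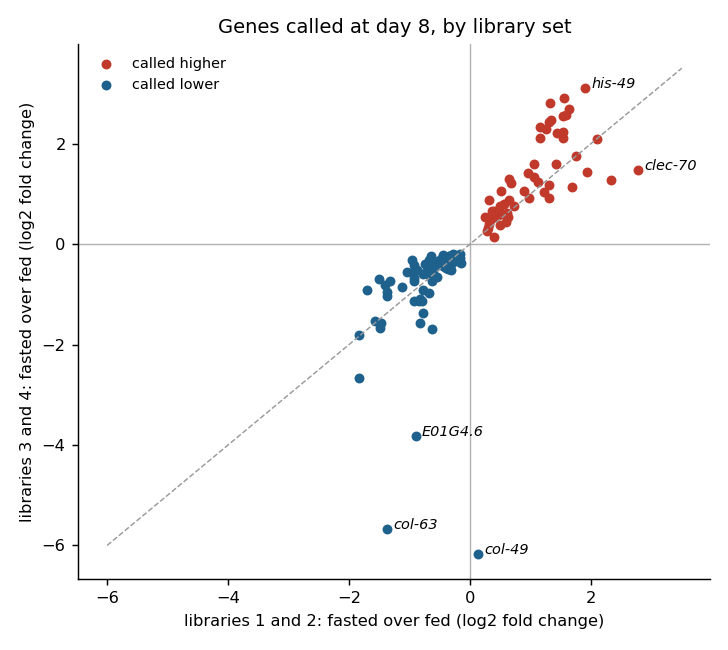
Log2 fold change (fasted over fed) of the 139 genes called at day 8, within libraries 1 and 2 (horizontal axis) and within libraries 3 and 4 (vertical axis), with called rises in red, called falls in blue and a dashed line where both are equal. The axes share no library, but the fit of both sets chose the genes, so agreement in sign is no separate support. The collagen gene col-63 lies at -1.37 and -5.68, and all but 1 gene keep the sign of the joint value in libraries 1 and 2.

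Histone genes made up 13 of the 53 rises, and the replicate block called 20 of 54 tested his genes. Histones package DNA, and mRNAs of the copies made for replication usually end in a stem-loop in place of a polyA tail, while the libraries were made from polyA RNA. Of 48 tested his genes other than variants, 13 rose, 43 had a fold change above 0 and the median was 1.34. Of 6 tested genes grouped as variants (among his-24, his-35 and his-69 to his-74), 0 were called and the median was -0.02. This group counts the linker histone gene his-24, which lay between 338.0 and 582.0 CPM over the day 8 libraries. his-45 (WBGene00001919) measured 13.7, 18.6, 5.30 and 9.86 CPM fed and 52.8, 43.1, 69.3 and 20.8 CPM fasted (log2 2.05 ± 0.36, adjusted p = 0.0325). Its lowest fasted library was just above its highest fed one. his-49 (WBGene00001901) rose from 2.49, 5.36, 1.87 and 3.58 CPM to 17.7, 12.0, 35.9 and 11.2 CPM (log2 2.54 ± 0.42, adjusted p = 0.0281), and fasted library 3 was highest. The summed level of the non-variant genes was 349.0, 413.0, 304.0 and 358.0 CPM fed and 777.0, 595.0, 1080 and 484.0 CPM fasted. Across the 8 libraries this sum followed the share of WBGene00004677: it was highest at 8.21%, next at 6.57%, then at 4.03%, and lowest at 0.582%, although fasted library 4 at 2.32% had more than fed library 2 at 2.89%. Fasted library 4 and fed library 1 had nearly the same share, 2.32% and 2.27%, with 484.0 and 349.0 CPM. With the share as a covariate the median of the non-variant genes was 0.48 and 0 were called. Near-identical copies may have shared counts, so single histone genes are uncertain.

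**Figure D4:**
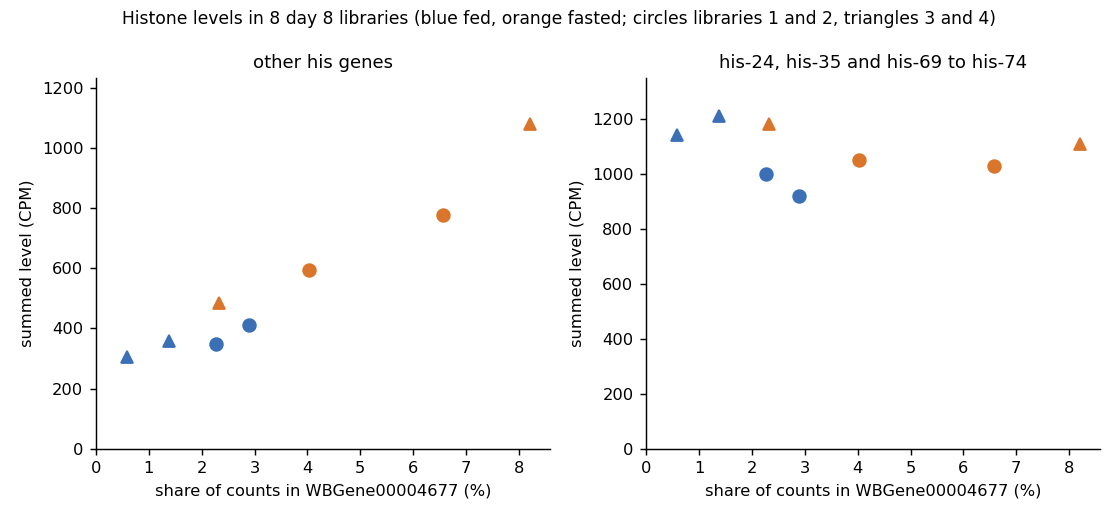
Summed level (CPM) of his genes in the 8 day 8 libraries, against the share of counts in the pseudogene WBGene00004677 (percent). The left panel holds his genes other than variants, and the right panel histone variants together with the linker histone gene his-24. Fed libraries are in blue, fasted in orange, with circles for libraries 1 and 2 and triangles for libraries 3 and 4. The left sum spans 304.0 to 1080 CPM and is highest where the share is highest, at 8.21%, while the right sum spans 918.0 to 1210 CPM.

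Beside the young response, most genes called at day 8 moved the same way in young adults, in many cases further. A minority reversed, and others were not called in young adults. Fed starting levels differed between the ages for some genes. In young adults 6046 of 17844 genes tested were higher on fasting (33.9%) and 5865 lower (32.9%), in the fit of all 16 libraries. Of the 53 day 8 rises, 34 also rose in young adults (64.2%), 2 fell and 17 were not called. Among the rises that were not histones these were 34 of 40 (85.0%), and 0 of the 13 histones rose in young adults. The share of WBGene00004677 overlapped between feeding states in young libraries. It was 2.43, 4.2, 1.96 and 6.22% fed and 4.81, 5.97, 2.36 and 2.44% fasted. The fit of both ages did not include the share, so its part in the histone difference between ages was not tested. Of the 86 day 8 falls, 64 also fell in young adults (74.4%), 13 rose (15.1%) and 9 were not called. Some falls were larger at day 8: pfas-1 had -0.50 at day 8 and -0.22 in young adults. The values for pgp-1, not called in young adults, were -0.69 and -0.13. Both differences were called (0.28 ± 0.07 and 0.56 ± 0.15, edgeR test of the difference, adjusted p = 0.00332 and 0.00431). The difference between the responses was itself called for 116 of the 139 genes, against 53.2% of all genes tested, and 27 rises and 52 falls went the same way and further in young adults. The day 8 libraries and the young libraries share no sample, but the test of the difference uses the day 8 values that chose these genes.

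T22F3.11 rose by 1.09 at day 8 and by 9.91 in young adults, a difference of 8.81 ± 0.16 (young minus day 8, log2, adjusted p = 4.92e-17). For lipl-3 the values were 0.92 and 8.13, and for ilys-3 0.56 and 7.22. These young rises began from fed means of 0.558 (T22F3.11), 0.197 (lipl-3) and 0.0289 CPM (ilys-3). At day 8 the fed means were 17.6, 3.18 and 21.7 CPM. Fasted ilys-3 averaged 4.68 CPM in young adults and 32.4 CPM at day 8, so its smaller fold change is not a lower level. dod-19 fell by 1.0 at day 8 and by 5.37 in young adults. The values were -1.54 and -7.09 for folt-2 and -0.64 and -6.12 for irg-8. Fed means were 259.0 CPM in young adults and 9.88 CPM at day 8 for folt-2, and 168.0 and 30.5 CPM for irg-8. For dod-19 the day 8 fed mean was the higher one, at 93.4 CPM against 52.4 CPM in young adults. Fasted folt-2 averaged 1.92 CPM in young adults and 3.38 CPM at day 8. A few genes responded by like amounts: cth-1 rose by 1.22 at day 8 and 1.03 in young adults (difference -0.19 ± 0.12, adjusted p = 0.192), and glna-2 by 0.50 and 0.48 (difference -0.01 ± 0.07, adjusted p = 0.91). Differences that were not called numbered 6 among rises and 8 among falls that went the same way at both ages.

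Read in the other direction, little of the strong young response was called at day 8. Of 650 genes with a young log2 fold change above 2, 24 were higher and 3 lower at day 8 (3.69% and 0.462%). At day 8, 433 of them had a value above 0, against 7968 of all 16717 genes tested. Their day 8 median was 0.14, where their young median was 2.88. Of 367 genes with a young value below -2, 23 fell and 0 rose at day 8 (6.27%), and the median was -0.16, where their young median was -2.69.

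**Figure D5:**
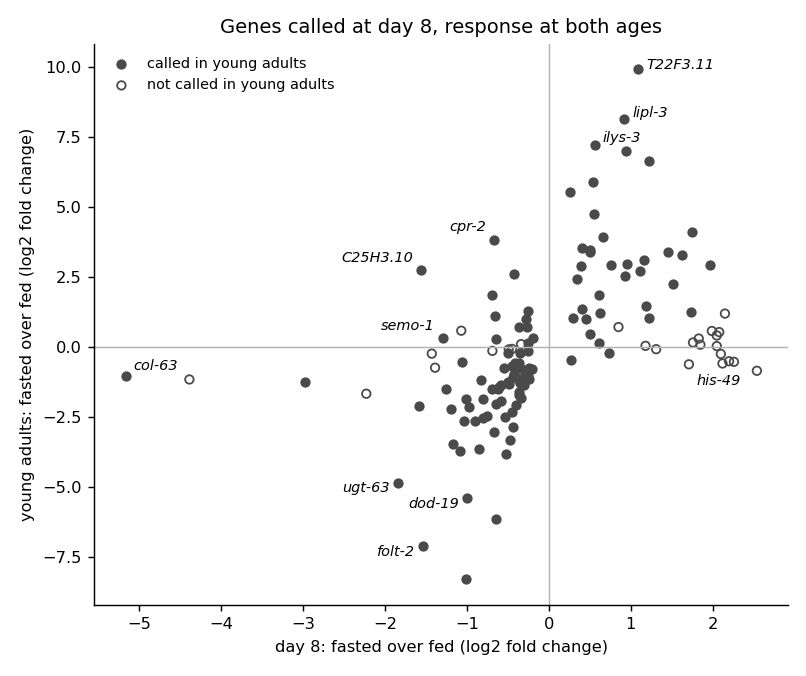
Log2 fold change on fasting in young adults (vertical axis) against day 8 adults (horizontal axis) for the 139 genes called at day 8, with filled points for genes also called in young adults and open points for the others. T22F3.11 lies at 1.09 and 9.91 and dod-19 at -1.0 and -5.37, while C25H3.10, of opposite sign at the 2 ages, lies at -1.56 and 2.74.

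The 15 genes that went opposite ways at the 2 ages were C25H3.10, cah-4, col-95, T19C4.5, semo-1, W07G4.5, cpr-2, nadk-1, pho-9, tps-2, K07E3.4, lec-2 and pck-2, lower at day 8 and higher in young adults, and F55H12.4 and pak-1, higher at day 8 and lower in young adults. The difference of the responses was called for all 15. The young rise of cpr-2 rested on means of 0.016 CPM fed and 0.237 CPM fasted, and that of pho-9 on 1.81 and 11.2 CPM. C25H3.10 (chromosome II, 5696498 to 5698969) measured 6.79, 7.66, 7.01 and 7.36 CPM fed and 2.42, 2.40, 2.26 and 2.63 CPM fasted. The groups lay far apart at day 8 (log2 -1.56 ± 0.10, adjusted p = 9.11e-05), and the young response was 2.74 ± 0.08. cah-4, a carbonic anhydrase gene on chromosome X (13542574 to 13544599), had 93.6, 99.3, 97.4 and 94.3 CPM fed and 60, 58.3, 63.7 and 64.2 CPM fasted, a log2 ratio of -0.64 ± 0.04 (adjusted p = 9.11e-05) against 0.29 ± 0.03 in young adults. col-95 and semo-1 had -0.66 and -1.29 at day 8 and 1.13 and 0.32 in young adults.

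By chromosome, V held 22 rises and 24 falls of 3495 tested genes, IV 15 and 15 of 2738, and X 3 and 18 of 2411. Chromosome III held 9 falls and 0 rises of 2473. Over all 16717 tested genes 53 rose (0.317%) and 86 fell (0.514%), and departures of single chromosomes from these shares were not tested. Within 10000 bases of each other lay 11 pairs of called genes, and in all 11 both genes moved the same way. Among them were dod-19 with irg-8, cth-1 with argk-1, ilys-3 with ilys-2, and 5 pairs of histones. How often neighbours among all tested genes moved the same way was not computed. Of the 139 genes, 27 overlap a protein-coding gene on the other strand, including alh-8, pfas-1, paic-1, atic-1, adh-1, tps-2, pck-2, pho-9, ugt-22, col-101 and col-143. These are overlaps of whole gene spans, introns included. Overlap of exons was not tested, and the share over all tested genes was not computed. Since the use of strand in counting is not given in the sources used here, the values of these genes may include counts from their partners.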

How the data were processed

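Whole-worm polyA RNA libraries were made with a Kapa mRNA HyperPrep kit, per the labels' protocols. Values in the deposited table are expected counts of genes (not whole, with no normalization, judged from the values). DESeq and WBcel235 are named in the submitters' processing notes. For the aligner and the counter, the name is not given in the sources used here. Symbols and positions came from the WBcel235 annotation. Counts were rounded, genes filtered with filterByExpr (5165 of 21882 left out), libraries scaled with TMM factors, and the 8 day 8 libraries fitted with a set term and a fasting term in edgeR 4.0.16 (R 4.3.3) with the quasi-likelihood test and Benjamini-Hochberg adjustment. The difference of responses came from 1 fit of all 16 libraries with 4 group means and a term for day 8 libraries 3 and 4. SE is the log2 fold change divided by the square root of F. Levels are CPM after TMM scaling, as mean ± SD over 4 libraries. Day 8 levels were scaled over the 8 day 8 libraries and young levels over all 16. Levels set side by side across ages therefore come from different scalings.

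Same-numbered day 8 libraries were treated as pairs only in the replicate block, an alternative to the set term of the main fit. Deviations from the group means correlated at 0.456, 0.594, 0.432 and 0.632 within pairs. Once set means were removed they correlated at 0.0963 and -0.193, so the shared part lies largely in the sets. Libraries of one set and feeding state differed beyond counting noise. Named genes were the 15 largest rises and falls with a lettered symbol, 10 CPM or more and fasted beyond fed in each set, up to 4 called members a list, the 5 largest differences between ages in each direction, and 20 fasting genes, 78 in all. The members, the library sets, the 52 gene lists and the tests were chosen with earlier results of these data known. Alternatives, with DESeq2 1.42.0 among them, are given in the closing section. Steps were tested on simulated data.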

Additional observations from a re-analysis of the deposited data

Results flagged for a closer look

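Among the 4 libraries of a group, 7 values of the named genes stood apart from the other 3, out of 156 groups checked, and chance gives such a value in about 1 of 20 groups. Fasted library 3 was the highest for his-4 (10.2 CPM, the others 4.3 to 5.13), his-17 (24.5 CPM, the others 9.3 to 11.4) and his-52 (39.4 CPM, the others 12.4 to 15.4), and it was also the library with the largest share of WBGene00004677. Fed library 2 was the highest for his-12, at 4.51 CPM against 3.15 to 3.37. Fasted library 2 was the lowest for hphd-1, at 25.7 CPM against 33.4 to 34.7. Fasted library 1 was the highest for lips-6, at 0.404 CPM against 0.154 to 0.187. Fed library 4 was the lowest for catp-3, a P-type ATPase gene, at 15.1 CPM against 21.7 to 22.4.

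For 66 named genes the fasting response differed between the ages in the edgeR test of the difference. Values are the young log2 response minus the day 8 one, so a positive value means a more positive response in young adults. Among genes called at day 8, positive differences were lipl-3 7.20, ilys-3 6.66, adh-1 5.27, cpr-2 4.50, far-7 4.21, col-63 4.16, ptr-3 3.12, pho-9 3.06, thn-2 2.97, nlp-25 2.36, ilys-2 2.00, col-95 1.79, semo-1 1.62, nlp-28 1.61, cah-4 0.94, pgp-1 0.56, str-176 0.54, pck-2 0.53 and tps-2 0.40. The value of cpr-2 rests on young means of 0.016 CPM fed and 0.237 CPM fasted.

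Negative differences among genes called at day 8, histones aside, were folt-2 -5.55, irg-8 -5.47, dod-19 -4.36, ugt-22 -3.29, ugt-63 -2.98, acdh-1 -2.62, paic-1 -2.35, ech-9 -2.32, clec-70 -2.01, ugt-41 -1.70, cyp-35C1 -1.6, tdo-2 -1.35, col-101 -1.13, hphd-1 -1.03, ugt-7 -1.01, hgo-1 -0.93, col-143 -0.82, catp-3 -0.77, gldc-1 -0.76, cpr-5 -0.54, bcat-1 -0.36, clec-150 -0.35, cpr-6 -0.32, alh-8 -0.19 and ugt-58 -0.16. For histones they were his-4 -2.77, his-52 -2.69, his-45 -1.63, his-47 -1.59, his-12 -1.51, his-59 -1.38 and his-63 -1.13, and near-identical copies may share counts. The fit behind these histone values did not include the share of WBGene00004677.

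Among fasting and metabolic genes not called at day 8, the differences were fmo-2 8.19, acs-2 6.43, cpt-3 6.24, icl-1 5.19, lgg-1 1.70, ctl-2 1.45, hlh-30 1.38, fat-5 1.07, prx-5 0.98, daf-22 0.95, fat-6 0.46, nhr-49 0.38, prx-10 0.34, fat-7 -5.88 and drp-1 -0.26.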

How the results depend on the processing

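Of the 139 genes called at day 8, 138 or 139 kept their sign in every alternative run, but the number called moved widely. These runs used the libraries that chose the genes, so a kept sign is no separate support. Higher and lower counts were 53 and 86 with edgeR's default test, 37 and 61 with its legacy version, 188 and 341 with DESeq2, and 312 and 700 with all 16 libraries in the fit. Without the set term they were 0 and 3 (467 genes at an unadjusted p under 0.05), against 2424 with it. Same-numbered libraries deviated together, largely with the library sets, and the replicate block called 80 and 153, with 134 of the 139 genes among them. Summing the libraries of each set gave 41 and 61 and kept 59 of the 139. Libraries 1 and 2 alone gave 9 and 33, libraries 3 and 4 alone 75 and 63, and the pseudogene share as a covariate gave 2 and 9. Leaving out each library in turn gave 7 to 264 higher and 27 to 619 lower. Counts moved over 1.5 times without fed library 1 (9 and 27), fed library 2 (264 and 619), fed library 3 (7 and 28), fed library 4 (27 higher), fasted library 2 (20 and 32), fasted library 3 (32 and 46) and fasted library 4 (52 lower). The difference of the responses, 4514 positive and 4981 negative, fell to 2518 and 2303 without the set term. Leaving out each of the 16 libraries gave 4250 to 4655 positive and 4577 to 4973 negative. One called gene changed sign, col-49 (0.14 in libraries 1 and 2 alone). Among named genes that were not called, sign changed for fat-7 (-0.07), fzo-1 (0.03) and daf-22 (-0.04) in libraries 1 and 2 alone, and fmo-2 (-0.10) in libraries 3 and 4 alone. The block moved the calls of 14 of 52 lists by over 1.5 times and DESeq2 those of 35. On simulated counts the default test made more false calls than its nominal rate, and the legacy version made fewer than the default but still more than nominal. Halving the counts kept all 139 calls, of which 42 had means below 10 CPM.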
